A study of Mus musculus with 24 samples.

Results

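Complement genes made by the liver were followed in 24 mice on 2 diets. The set held 32 genes by name, 31 of which had a probe on the array under that name. No spot carried the name C1s, and C1s was not analysed here. Each gene was represented by the 1 probe with the highest mean Cy5 signal over the 24 arrays, so signal chose the probe and the diet did not. Of the 31 genes, 29 passed the filter on dim probes, out of 18649 genes tested in all and 37074 with a probe. Cd46, a membrane cofactor for the breakdown of C3b, and C5ar1, the receptor for the C5a fragment, were well above background on 0 of 24 arrays and were not tested.

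All mice were C57BL/6JRcc, an inbred laboratory strain, labelled female, 6 weeks old, and housed singly. From 3 weeks of age they ate a semi-synthetic diet with 16% of energy from fat, 20% from protein, 32% from starch and 32% from monosaccharides. In the GLU+GAL group (n = 12 mice) the monosaccharides were glucose and galactose in equal parts, and in the GLU group (n = 12) they were glucose alone. The labels give neither group a mutation or a drug. At postnatal day 42 the right liver lobe was taken in the light phase from mice without food. Each array carried Cy5-labelled RNA of 1 mouse beside a Cy3-labelled pool of RNA from all mice. Values are log2 ratios of mouse over pool, so they compare mice for 1 gene and do not rank genes by level. The whole liver lobe was sampled, so fewer cells of a type and less RNA per cell cannot be told apart.

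Complement is a cascade of plasma proteases that tags and lyses microbes. The classical and lectin arms cleave C4 and C2, the alternative arm uses factors B and D, and all arms meet at C3, whose cleavage opens the terminal arm that builds the membrane attack complex. Hepatocytes secrete most of the plasma components, macrophages add some, and soluble and membrane regulators hold the cascade in check. Many components are also acute-phase proteins, whose genes hepatocytes induce in inflammation.

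Between 46.6% and 51.3% of spots were well above background in Cy5 on each array. Array GLU+GAL 4 stood apart, with log ratios of SD 0.49 (next highest 0.31), and its Cy3 channel correlated least with that of the rest (median 0.977, next lowest 0.987). It was the highest of 24 for Fcna, Cd59a and C3ar1 and the lowest for Mbl2. The mouse of array GLU+GAL 12 was labelled female, yet Ddx3y and Eif2s3y, both on the Y chromosome, had signal well above background there and on no other array. Xist, the RNA of the inactive X chromosome, was well above background on the other 23 arrays and not on that one. Of the other Y-linked probes, Uty was above background on 0 arrays and Kdm5d on all 24. On array GLU+GAL 12, C8g was the highest of 24 and Cfp the second lowest. Results were therefore also computed without both arrays. Of 9 hepatocyte markers listed, 8 had a probe and all 8 passed the filter on dim probes.

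The promoters shown are those of members that were lower in GLU+GAL livers at an unadjusted p under 0.05 and held 1 of 6 searched motifs in the 250 bases before the start site. RefSeq windows (build GRCm38.p6) matched 23 of the 32 listed genes, 9 of them among the lower ones. The motifs were searched as letters on both strands, with N for any base. They were those of C/EBP (TTGCNNAA), STAT (TTCNNNGAA), HNF1 (GTTAAT, any base, ATTAAC), HNF4 (CAAAGTCCA), NF-kB (GGGA, any base, TTTCC) and the interferon element (GAAA, any 2 bases, GAAA). Capitals mark the match: C/EBP in C3 and C9, STAT in C8a.
C3 (chr17:57228137-57228386, strand -): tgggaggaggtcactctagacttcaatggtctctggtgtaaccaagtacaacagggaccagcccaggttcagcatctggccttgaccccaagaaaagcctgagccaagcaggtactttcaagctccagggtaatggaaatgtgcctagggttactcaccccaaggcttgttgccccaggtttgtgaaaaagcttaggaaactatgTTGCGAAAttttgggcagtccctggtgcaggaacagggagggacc
C9 (chr15:6445096-6445345, strand +): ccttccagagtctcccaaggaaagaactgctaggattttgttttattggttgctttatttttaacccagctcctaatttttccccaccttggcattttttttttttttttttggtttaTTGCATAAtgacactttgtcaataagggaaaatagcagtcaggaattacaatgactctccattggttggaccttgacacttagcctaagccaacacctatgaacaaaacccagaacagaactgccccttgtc
C8a (chr4:104876399-104876648, strand -): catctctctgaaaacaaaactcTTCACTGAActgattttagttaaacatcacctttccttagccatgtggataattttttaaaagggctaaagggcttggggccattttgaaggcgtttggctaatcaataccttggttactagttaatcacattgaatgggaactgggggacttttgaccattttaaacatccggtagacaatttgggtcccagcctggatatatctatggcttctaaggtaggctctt

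Relative to the start site, the C/EBP match began at -45 in C3 and at -132 in C9, and the STAT match of C8a began at -228. C/EBP letters were found in 2 of 23 members and in 9.56% of all 32851 windows. STAT letters were found in 4 of 23 members (C7, C8a, Colec11 and Masp2) against 7.02% of all windows. The interferon element was found in Cd59a and Colec11, against 2.98% of all windows. HNF1, HNF4 and NF-kB letters were in none of the 23 windows, and in 0.009%, 0.384% and 0.356% of all. A match of letters is a description and not a bound site.

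Most complement genes had a lower mean in GLU+GAL livers than in GLU livers, by small amounts. Of 29 genes, 25 had a lower mean, against 49.2% of all genes tested, and the median difference was -0.13 on the log2 scale, against 0.0013 over all genes. At an unadjusted limma p under 0.05, 15 members were lower, where 2.66% of all genes were, and 0 members were higher, where 1.65% of all genes were. After adjustment over all 18649 genes, 0 members passed and 0 genes passed (0% of genes; lowest adjusted p 0.523; 803 genes, 4.31%, at an unadjusted p under 0.05 in either direction). The counts that follow are therefore descriptions at an unadjusted level. The members were chosen with earlier results of these data known, so setting their counts beside the shares of all genes is no test of the set. The diet groups overlapped for each of the 29 genes.

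**Figure D1:**
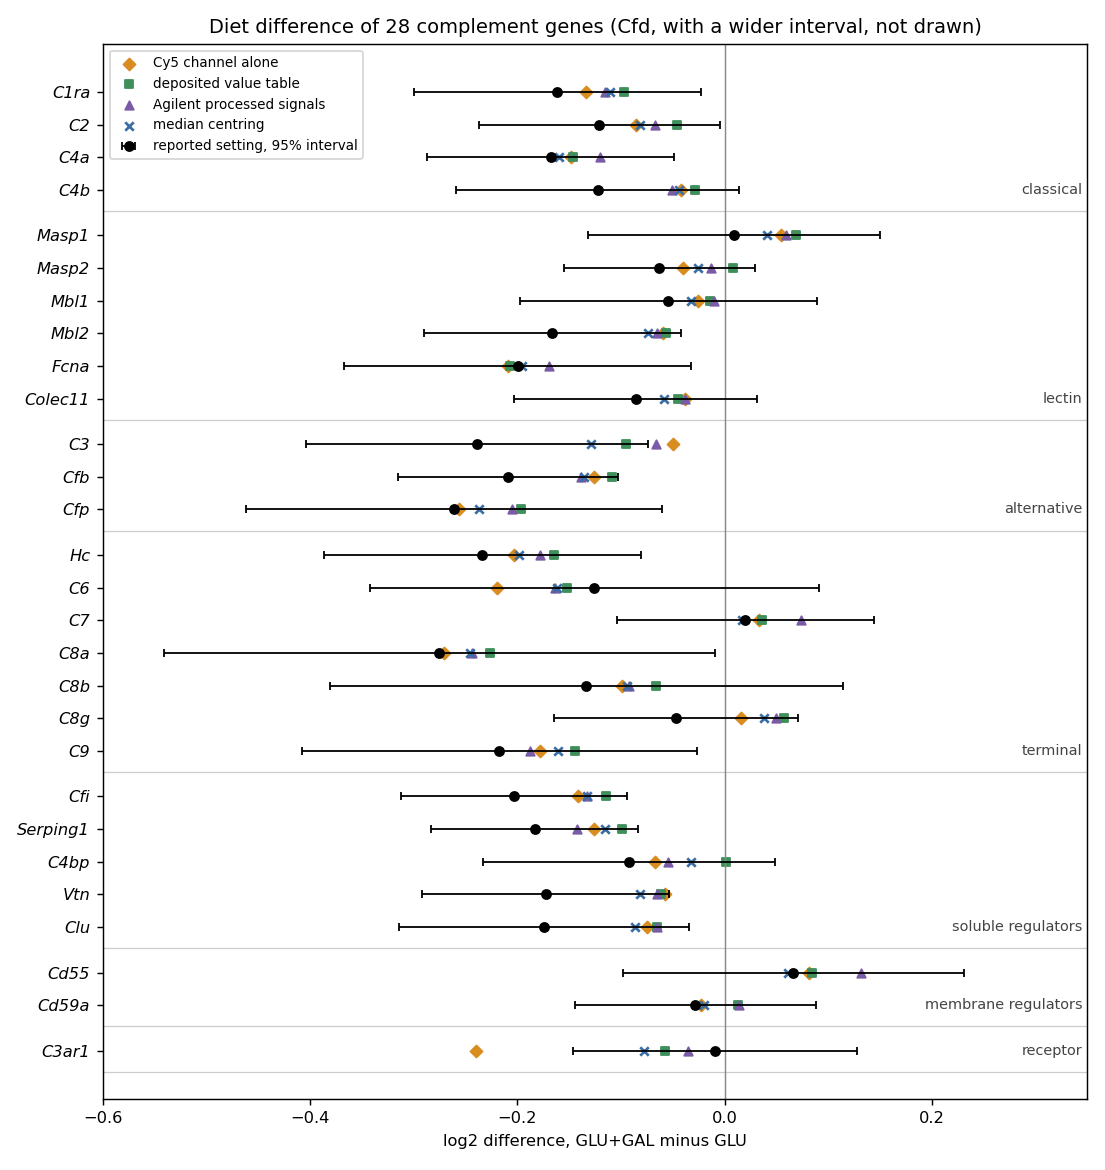
Log2 difference between the diets (GLU+GAL minus GLU, x axis) for 28 complement genes grouped by arm (y axis), with black points and 95% intervals for the reported setting (n = 12 per diet) and coloured symbols for 4 other sources of the values. Most points lie left of 0 and most coloured symbols lie nearer to 0 than the black point, as for C3 (-0.24 as reported, -0.05 in Cy5 alone), while those of Cfp, C8a and Fcna stay close to it.

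C3, the protein at which all arms meet, had log2 ratios from -0.12 to 0.61 (median 0.20) in GLU+GAL livers, against 0.08 to 0.84 (median 0.50) in GLU livers. Of the GLU+GAL mice, 11 of 12 were under the GLU average, yet the ranges overlapped widely. The difference was -0.24 ± 0.08 (SE, n = 12 per diet; unadjusted limma p = 0.00621), a 1.18-fold lower mean, and the second C3 probe gave -0.22. Its size was uneven between slides: within slides 1, 2 and 3 it was -0.04, -0.50 and -0.18. In Cy5 alone the C3 difference was -0.05.

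In the alternative arm, Cfb was the member with the smallest p. Cfb encodes factor B, the protease of the alternative convertase. Its log2 ratios ran from 0.0041 to 0.40 (median 0.13) in GLU+GAL livers, against 0.16 to 0.58 (median 0.36) in GLU livers, with 11 of 12 GLU+GAL mice under the GLU average. The difference was -0.21 ± 0.05 (unadjusted p = 0.000414, adjusted p = 0.744), rank 7 of all genes by p. It was -0.15, -0.27 and -0.20 within the 3 slides and -0.17 on the second probe. In Cy5 alone it was -0.13.

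Cfp encodes properdin, which stabilises the alternative convertase and comes mainly from white blood cells. Its ratios ran from -0.33 to 0.50 (median 0.01) in GLU+GAL livers, against -0.07 to 0.81 (median 0.28) in GLU livers. Most GLU+GAL mice were low, and 2 of 12 lay above the GLU mean. The difference was -0.26 ± 0.10 (p = 0.0128). It held nearly the same size within slides (-0.25, -0.23 and -0.31) and in Cy5 alone (-0.26).

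Cfd encodes factor D, also called adipsin, the protease that activates factor B and is known as a product of fat cells. Its probe was well above background on 6 GLU+GAL and 4 GLU arrays, so it entered the test through the GLU+GAL group alone. The ratios ran from -1.46 to 2.93 (median -0.92) in GLU+GAL livers, against -1.65 to 1.03 (median -1.39) in GLU livers. Array GLU+GAL 11 was far above all others. The difference of 0.44 ± 0.38 (p = 0.256) was 0.12 without that array, and the within-diet SD of 1.02 was larger than that of 99.9% of genes. In Cy5 alone the Cfd difference was 1.26, and over 5 sources of the values it ran from 0.42 to 1.34.

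**Figure D2:**
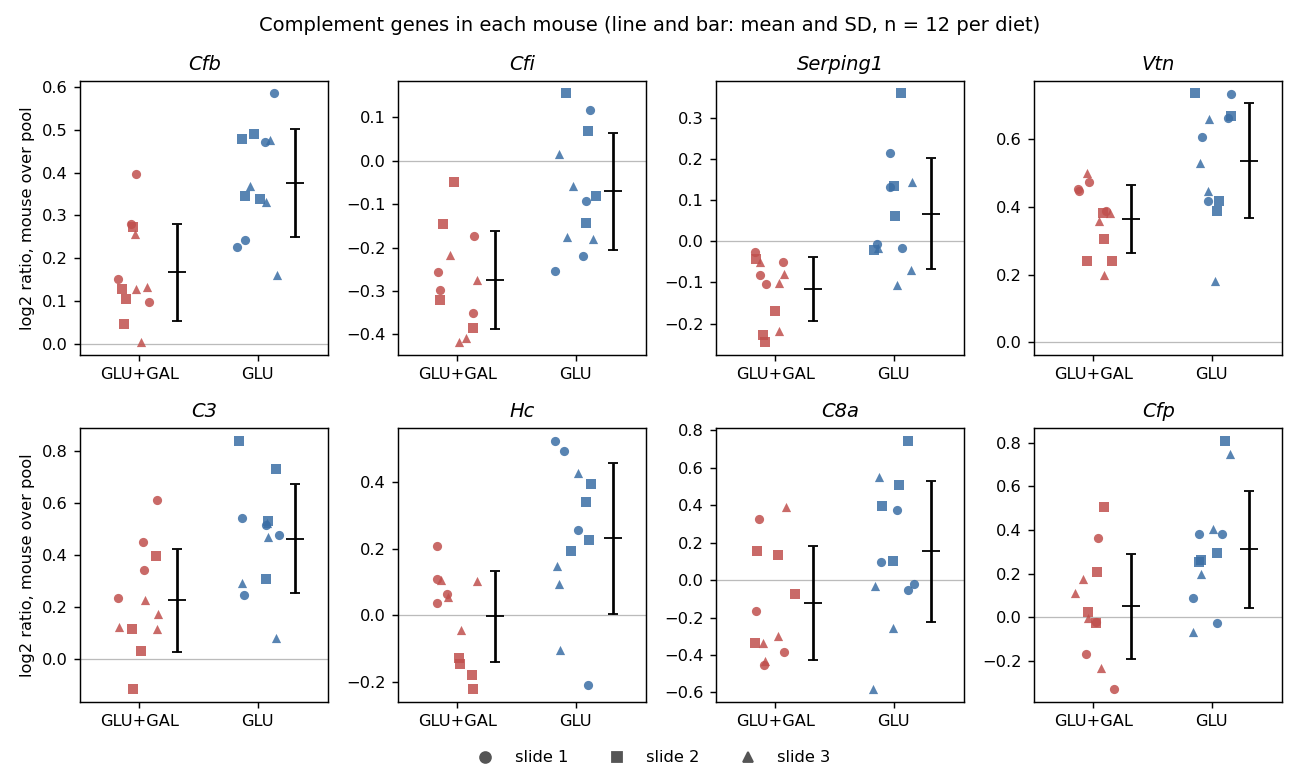
Log2 ratio of mouse over pool (y axis) for 8 complement genes in each of 12 GLU+GAL and 12 GLU mice (x axis), with point shape by slide and mean ± SD beside the points. For Serping1, Hc and Vtn each of the 12 GLU+GAL mice is under the GLU average, but in each panel the groups overlap.

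In the classical arm all 4 tested genes averaged lower in GLU+GAL livers, 3 with an unadjusted p under 0.05, and the median difference was -0.14. C1ra, the protease that first activates the C1 complex, had ratios from -0.44 to 0.10 (median -0.08) in GLU+GAL livers, against -0.40 to 0.31 (median 0.07) in GLU livers. Its difference of -0.16 ± 0.07 (p = 0.0241) was 0.029 within slide 1, with the opposite sign, and had a p of 0.0516 without GLU+GAL 3. C2, which with C4b forms the classical convertase, had ratios from -0.21 to 0.34 (median -0.02) in GLU+GAL livers, against -0.0019 to 0.41 (median 0.10) in GLU livers. These groups shared most of their range, and the difference of -0.12 ± 0.06 (p = 0.0415) had a p of 0.0876 without GLU 12 and was 0.025, with the opposite sign, within slide 3.

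C4a encodes the sex-limited protein and C4b the haemolytic C4, a pair of near-identical genes. The probe used for C4a is annotated to transcripts of both genes, so its signal may hold both. C4a ran from -0.16 to 0.31 (median 0.08) in GLU+GAL livers, against 0.05 to 0.54 (median 0.25) in GLU livers, a difference of -0.17 ± 0.06 (p = 0.00759). With 11 of 12 GLU+GAL mice under the GLU average, it was steady within slides (-0.16, -0.20 and -0.15). C4b differed by -0.12 ± 0.07 (p = 0.0767), and by 0.10, -0.33 and -0.14 within slides.

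The lectin arm starts from sugar-binding proteins, and 5 of its 6 genes averaged lower in GLU+GAL livers, 2 with an unadjusted p under 0.05 (median difference -0.07). Mbl2, mannose-binding lectin C, had ratios from -0.17 to 0.25 (median 0.02) in GLU+GAL livers, against -0.04 to 0.39 (median 0.15) in GLU livers, a difference of -0.17 ± 0.06 (p = 0.0104). The Mbl2 difference was -0.06 in Cy5 alone, and -0.0053, -0.22 and -0.28 within slides 1, 2 and 3. Fcna, ficolin A, known in mouse as a product of macrophages, ran from -0.32 to 0.48 (median 0.07) in GLU+GAL livers, against 0.0046 to 0.37 (median 0.25) in GLU livers. The GLU+GAL values of Fcna spanned the whole GLU range, and the difference was -0.20 ± 0.08 (p = 0.0213). Colec11 (-0.09 ± 0.06), a collectin, and Mbl1 (-0.05 ± 0.07), mannose-binding lectin A, did not reach that level. The proteases of the arm, Masp1 (0.01 ± 0.07) and Masp2 (-0.06 ± 0.05), did not either, and their probes disagreed in sign: the other Masp1 probes gave -0.09, -0.08 and 0.10, and those of Masp2 0.08 and -0.07.

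In the terminal arm 6 of 7 genes had a lower mean, 3 at an unadjusted p under 0.05, with a median difference of -0.13. Hc, the mouse gene for C5, ran from -0.22 to 0.21 (median 0.05) in GLU+GAL livers, against -0.21 to 0.52 (median 0.24) in GLU livers. Each of the 12 GLU+GAL mice was under the GLU average, although the lowest mice of both diets were alike. The difference was -0.23 ± 0.07 (p = 0.00406), and -0.20 in Cy5 alone.

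C8a encodes the alpha chain of C8, which inserts into the membrane, and its mean lay farthest below that of GLU livers among the 29 members. Its ratios ran from -0.45 to 0.39 (median -0.23) in GLU+GAL livers, against -0.58 to 0.75 (median 0.10) in GLU livers. The single lowest mouse was on GLU. The difference of -0.28 ± 0.13 (p = 0.0429; -0.38 on the second probe) had a p of 0.0883 without GLU 7 and a 2-sided permutation p of 0.0619.

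C9, which forms the pore, ran from -0.85 to -0.09 (median -0.56) in GLU+GAL livers, against -0.60 to 0.32 (median -0.34) in GLU livers. The highest mouse, GLU 7, weighed on its difference of -0.22 ± 0.09 (p = 0.0269), which was -0.16 (p = 0.0563) without it. C6 (-0.13 ± 0.11), C7 (0.02 ± 0.06), C8b (-0.13 ± 0.12) and C8g (-0.05 ± 0.06), the other parts of the attack complex, did not reach an unadjusted p of 0.05.

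All 5 soluble regulators averaged lower in GLU+GAL livers, 4 with an unadjusted p under 0.05 (median difference -0.17). Cfi, factor I, which cleaves C3b and C4b, ran from -0.42 to -0.05 (median -0.29) in GLU+GAL livers, against -0.25 to 0.15 (median -0.09) in GLU livers. The difference was -0.20 ± 0.05 (p = 0.000711), and it was -0.16, -0.23 and -0.23 within slides. Serping1, the C1 inhibitor that blocks the proteases of the classical and lectin arms, ran from -0.24 to -0.03 (median -0.09) in GLU+GAL livers, against -0.11 to 0.36 (median 0.03) in GLU livers. Each of the 12 GLU+GAL mice was under the GLU average and the GLU mice spread upwards, with a difference of -0.18 ± 0.05 (p = 0.000839).

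Vtn, vitronectin, and Clu, clusterin, keep the terminal complex out of membranes. Vtn ran from 0.20 to 0.50 (median 0.38) in GLU+GAL livers, against 0.18 to 0.74 (median 0.57) in GLU livers, and differed by -0.17 ± 0.06 (p = 0.00624). Clu ran from -0.29 to 0.19 (median -0.01) in GLU+GAL livers, against -0.10 to 0.55 (median 0.16) in GLU livers, and differed by -0.17 ± 0.07 (p = 0.0163). Both were smaller in Cy5 alone, at -0.06 for Vtn and -0.08 for Clu. C4bp, the C4b-binding protein, differed by -0.09 ± 0.07 (p = 0.189).

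Of the 3 tested genes for cell-surface proteins, 2 had a lower mean and 0 were lower at an unadjusted p under 0.05. Cd55, which speeds the decay of convertases, ran from -0.47 to 0.18 (median -0.27) in GLU+GAL livers, against -0.74 to 0.0015 (median -0.24) in GLU livers, a difference of 0.07 ± 0.08 (p = 0.416). One of its other probes had the opposite sign, at -0.08. Cd59a, which blocks C9, differed by -0.03 ± 0.06. C3ar1, the receptor for C3a, ran from -0.0054 to 0.64 (median 0.17) in GLU+GAL livers, against -0.06 to 0.41 (median 0.22) in GLU livers, a difference of -0.01 ± 0.07 as reported and -0.24 (p = 0.0454) in Cy5 alone. For the C3ar1 probe the Cy3 pool was well above background on 5 of 24 arrays, and Cy5 on all 24. Its ratio was therefore mostly taken over a pool signal near background. Whether secreted and surface proteins differed from each other was not tested.

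The source of the values changed how many members stood below the unadjusted level. All 15 lower members kept their sign in each of 5 sources (log2 ratios after loess, median-centred ratios, Agilent's processed signals, Cy5 alone and the authors' deposited value table), but their number at an unadjusted p under 0.05 was 10 in Cy5 alone, 9 of them shared with the 15. It was 3 in the deposited table, 2 with processed signals and 0 with median centring. The share of all genes called lower changed too, at 2.31% in Cy5 alone, 1.63% in the deposited table, 0.987% with processed signals and 1.42% with median centring. The median difference of members was -0.08 in Cy5 alone and -0.06 in the deposited table, against 0.0088 and 0.012 over all genes. Without GLU+GAL 4 and 12 the number was 14.

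Other groups of genes had lower means beside complement, and their part in the result was not tested. These lists, too, were chosen with earlier results of these data known, so their counts are descriptions. Of 8 hepatocyte markers tested, 7 had a lower mean and 4 were lower at an unadjusted p under 0.05, with Alb (albumin) at -0.17, Apoa1 (apolipoprotein A-I) at -0.22, Hnf4a (a hepatocyte transcription factor) at -0.16 and Serpina1a (an antitrypsin) at -0.16. Their median difference was -0.14 as reported, close to the -0.13 of complement, and -0.03 in Cy5 alone. The mean of the hepatocyte list per mouse ran from -0.03 to 0.30 in GLU+GAL livers, against 0.10 to 0.49 in GLU livers. Of 20 acute-phase genes outside complement, 17 had a lower mean and 13 were lower at that level (median -0.22, and -0.13 in Cy5 alone). Their mean per mouse ran from -0.21 to 0.12 in GLU+GAL livers, against 0.0028 to 0.32 in GLU livers. Of 13 Kupffer cell markers, 12 had a lower mean and 6 were lower at that level (median -0.21, and -0.23 in Cy5 alone), with list means from -0.49 to 0.34 in GLU+GAL livers, against -0.09 to 0.73 in GLU livers. All 13 Kupffer markers passed the filter on dim probes. Of 10 male-predominant liver genes tested, 9 had a lower mean and 2 were lower at that level (median -0.17, and -0.07 in Cy5 alone), with list means from -0.65 to 0.48 in GLU+GAL livers, against -0.51 to 1.02 in GLU livers. Of 5 neutrophil markers tested, 4 had a lower mean and 1 was lower at that level (median -0.14), with list means from -0.60 to 0.77 in GLU+GAL livers, against -0.28 to 0.22 in GLU livers. The adipocyte (2 of 5), cholangiocyte (2 of 4) and mesothelium (1 of 2) lists had fewer genes with a lower mean, and 0 at that level.

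Brightness of the probe moved with the result as well. Of the 29 complement genes, 13 lay in the brightest of 10 equal bins of genes by Cy5 signal and 8 in the next. In the brightest bin 67.1% of all genes had a lower mean and 7.61% were lower at an unadjusted p under 0.05, against 0.376% in the dimmest bin. Of the 15 lower members, 10 lay in the brightest bin. The part of brightness in the result was not tested.

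**Figure D3:**
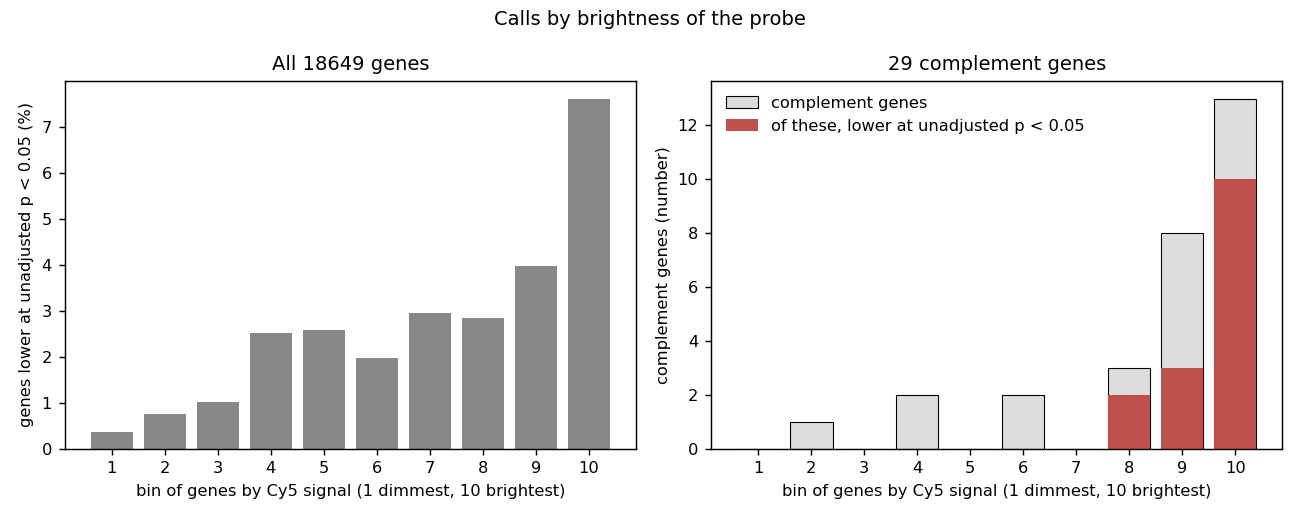
Left, the percentage of all 18649 genes that were lower in GLU+GAL at an unadjusted p under 0.05 (y axis) in 10 equal bins of genes by Cy5 signal (x axis). Right, the number of complement genes in each bin, with those lower at that level in red. The share was 7.61% in the brightest bin, which holds 13 of the 29 complement genes.

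Complement genes outside the set went partly the same way. Of 30 further genes listed, 27 had a probe and 25 were tested. Of these, 17 had a lower mean (median -0.07), against 49.2% of all genes tested. At an unadjusted p under 0.05, 5 were lower, where 2.66% of all genes were. In Cy5 alone 15 had a lower mean (median -0.05) and 3 were lower at that level. C1qa (-0.20 ± 0.10) and C1qc (-0.23 ± 0.09), chains of C1q made by macrophages and also counted among the Kupffer markers, were lower at an unadjusted p under 0.05. So were C1rb (-0.14 ± 0.05), a paralogue of C1ra, and Cpn1 (-0.12 ± 0.05) and Cpn2 (-0.17 ± 0.06), the subunits of carboxypeptidase N, which inactivates C3a and C5a. C1qbp, a mitochondrial protein named for binding C1q, was higher at that level, at 0.12 ± 0.05.

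Across mice, complement genes varied together in part. Of the 406 pairs of members, 295 had a correlation above 0 and the median Pearson r was 0.18, against 0.0084 over all pairs of genes. After removing the means of diet and slide the median was 0.12, against 0.010, and in Cy5 alone it was 0.10, against 0.0006. Permutation tests (100000 resamples, adjusted over the 406 pairs) called 55 pairs positive and 3 negative by r at 0.05. The share of pairs called over all genes was not computed, so these counts have no background beside them. The tests shuffled mice across diets and slides, so a diet or slide shift common to both genes of a pair adds to a call. Genes of 1 array share its pool signal and its normalisation.

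**Figure D4:**
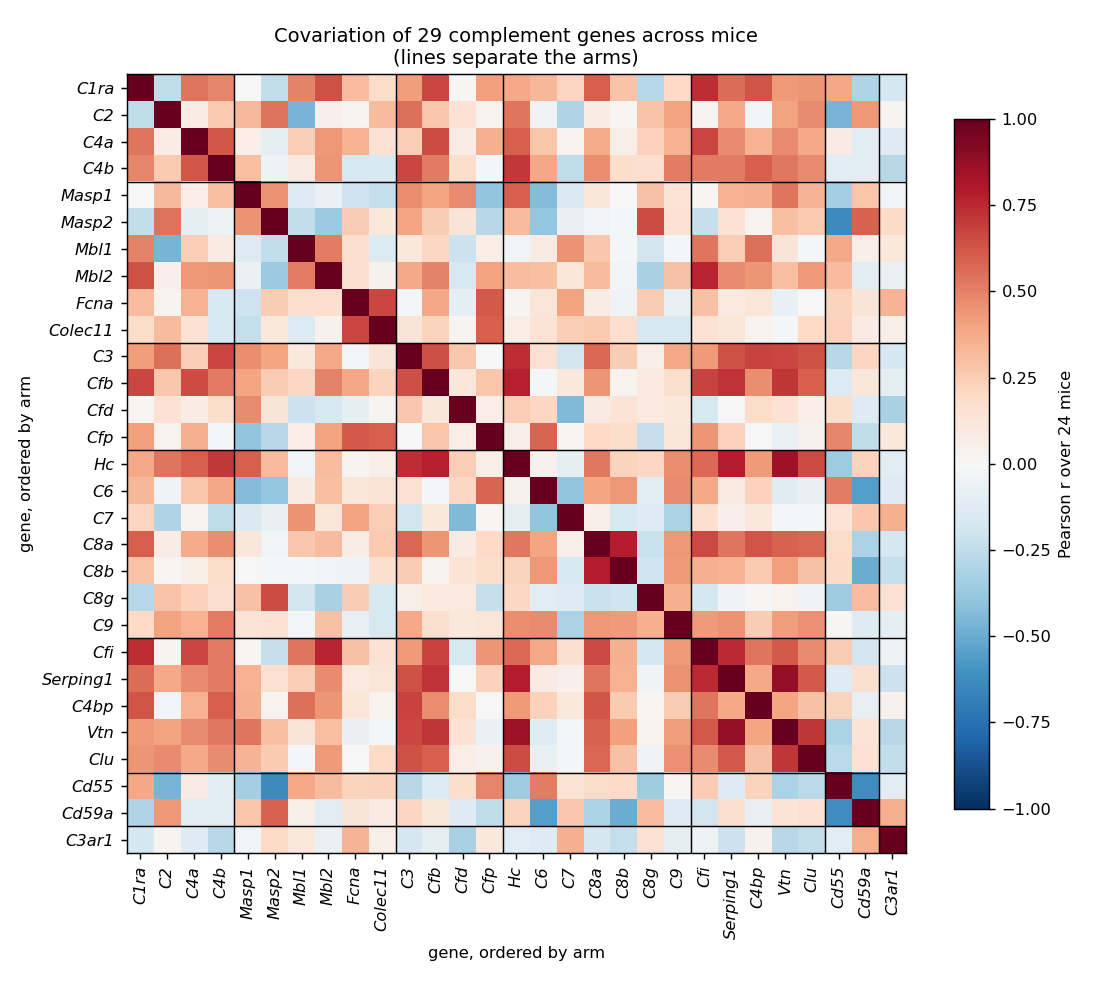
Pearson r over 24 mice (colour, from -1 to 1) for each pair of 29 complement genes, ordered by arm on both axes. Red dominates among C3, Cfb, Hc and the soluble regulators. Among the soluble regulators alone the median r was 0.57. It was 0.42 after removing the means of diet and slide, and 0.22 in Cy5 alone. The strongest blue cells are those of Cd55 with Masp2 and Cd59a.

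The 5 strongest pairs were made up of Serping1, Vtn, Hc, Cfb and the C8 chains C8a and C8b. Serping1 and Vtn had r = 0.880 (rho = 0.813; adjusted permutation p = 0.00135 and 0.00244), 0.847 without the 2 mice farthest from the median, and 0.905, 0.946 and 0.845 within slides. In Cy5 alone that pair had r = 0.299. Hc with Vtn had r = 0.849 (rho = 0.797; p = 0.00135 and 0.00244; 0.519 in Cy5 alone) and Hc with Serping1 r = 0.788 (rho = 0.695; p = 0.00135 and 0.00667; 0.643 in Cy5 alone). Without the 2 farthest mice these were 0.805 and 0.738. Cfb with Hc had r = 0.780 (rho = 0.763; p = 0.00152 and 0.00244), 0.777 without 2 mice, and 0.397 within GLU+GAL mice against 0.826 within GLU mice, a contrast that was not tested.

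C8a and C8b, whose proteins join in 1 complex and whose probes lie near each other on chromosome 4 (mm9, 104488479 to 104488538 and 104477094 to 104477153), had r = 0.786 (rho = 0.788; p = 0.00135 and 0.00244). This pair held in Cy5 alone (0.698), within slides (0.652, 0.624 and 0.935) and without the 2 farthest mice (0.716). C8g, the third chain of the same complex, had no called correlation with C8b (r = -0.198, rho = -0.183; p = 0.604 and 0.649).

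Other pairs named by function were looser. C4a and C4b had r = 0.622 (rho = 0.705; p = 0.0158 and 0.00667; 0.591 without 2 mice), a pair for which the C4a probe may read both genes. Mbl1 and Mbl2 (r = 0.511, rho = 0.424; p = 0.0642 and 0.176) and Masp1 and Masp2 (r = 0.447, rho = 0.462; p = 0.126 and 0.125) missed the adjusted threshold. Without 2 mice they were at 0.447 and 0.325. Across mice, the other Masp1 probes had r of 0.23, 0.14 and 0.37 with the one used, so Masp1 correlations are those of 1 probe. C2 and Cfb, neighbouring genes on chromosome 17 (mm9 probes at 34999575 to 34999634 and 34993502 to 34993858) that supply the proteases of the classical and the alternative convertase, had r = 0.270 (rho = 0.428; p = 0.441 and 0.173). That value was 0.653 without GLU 12 and GLU+GAL 3, and -0.449 within slide 3.

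The 3 pairs called negative by r all involved a membrane regulator. Cd55 with Masp2 had r = -0.638 (rho = -0.495; p = 0.0108 and 0.0952; -0.431 without the 2 farthest mice). Cd55 with Cd59a had r = -0.621 (rho = -0.691; p = 0.0165 and 0.00669; -0.588 without 2 mice), and C6 with Cd59a r = -0.551 (rho = -0.563; p = 0.0384 and 0.0412; -0.561 without 2 mice). All kept their sign within each slide, with C6 and Cd59a weakest on slide 2 (-0.091), and in Cy5 alone (-0.731, -0.515 and -0.433). These are values of 1 probe per gene. Across mice, other Cd55 probes had r of 0.69 and 0.32 with the one used, and other Masp2 probes 0.29 and 0.59. The other Cd59a probe had 0.80. Whether the negative pairs hold for other probes was not tested.

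Members also followed marker lists across mice, in a family of 232 relations over 29 genes and 8 lists. The share of all genes called with each list was not computed, so the calls with lists have no background beside them. These tests also shuffled mice across diets and slides, so a shift common to a member and a list adds to a call. Cfp followed the Kupffer markers most closely, with r = 0.945 (rho = 0.894; adjusted permutation p = 0.00116 and 0.000773), 0.914 without the 2 farthest mice and 0.958, 0.937 and 0.953 within slides. In Cy5 alone it was 0.956. Mice GLU 11 and GLU 3 were highest in both Cfp and the Kupffer list, and GLU+GAL 9 lowest in both. Fcna (r = 0.665, rho = 0.690; p = 0.0116 and 0.00841), C6 (r = 0.623, rho = 0.553; p = 0.0177 and 0.0504) and Colec11 (r = 0.599, rho = 0.617; p = 0.0281 and 0.0307) were called with the same list by r, C6 not by rho, at 0.589, 0.571 and 0.485 without 2 mice. Within slides 1, 2 and 3 Fcna had r of 0.796, 0.744 and 0.401, C6 had 0.459, 0.406 and 0.884, and Colec11 had 0.917, 0.248 and 0.159, so that of Colec11 was high on slide 1 only.

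**Figure D5:**
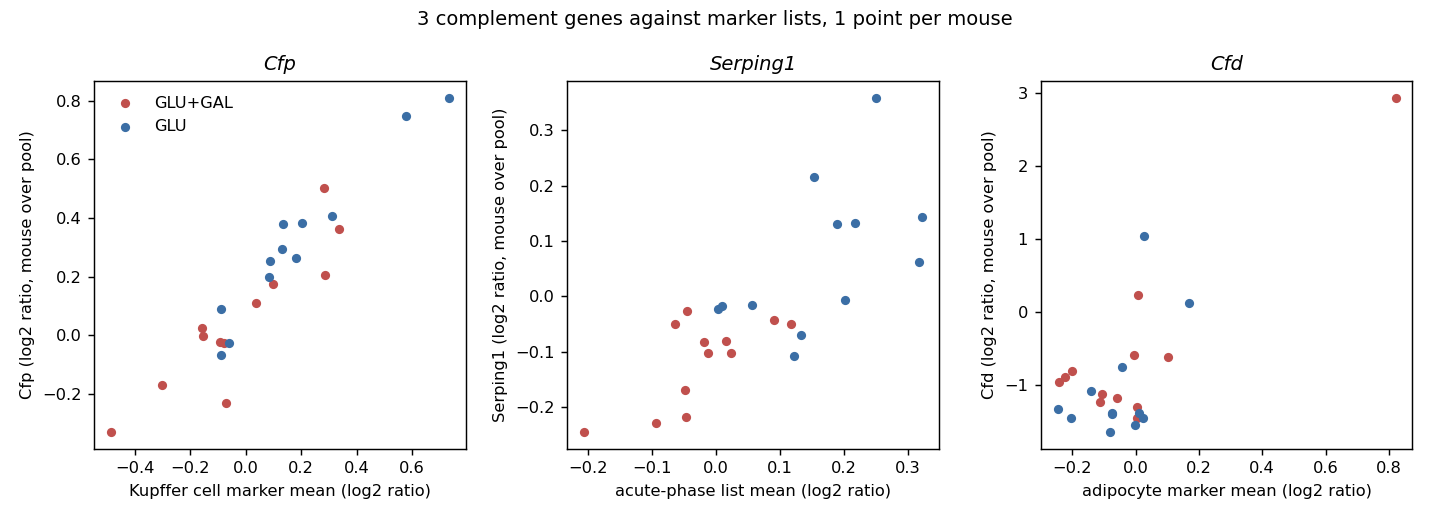
Log2 ratio of Cfp, Serping1 and Cfd (y axes) against the mean log2 ratio of Kupffer cell markers, acute-phase genes and adipocyte markers (x axes), 1 point for each of 24 mice. Cfp lies close to a line (r = 0.945) and Serping1 rises with the acute-phase mean (r = 0.778), while the relation of Cfd (r = 0.788) rests on the GLU+GAL mouse at the upper right. The Cfd probe was well above background on 10 of 24 arrays.

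Serping1 followed the acute-phase list (r = 0.778, rho = 0.784; adjusted p = 0.00116 for both; 0.789 without 2 mice; 0.581 in Cy5 alone), and so did Hc, Cfi, Vtn, Cfp and Cfb, with r from 0.572 to 0.656. For Cfb this was 0.205 once the means of diet and slide were removed. The hepatocyte list gave 9 calls by r, led by C4b (r = 0.747), C3 (0.745), Hc (0.731) and Vtn (0.722), with adjusted p from 0.00155 to 0.00309. These relations were weaker in Cy5 alone, at 0.255, 0.522, 0.381 and 0.499.

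A list of male-predominant liver genes that holds no complement gene was included because serum terminal components are known to be lower in female than in male mice of related strains. C8a (r = 0.704, rho = 0.689; p = 0.00563 and 0.0098; 0.601 without 2 mice) and C8b (r = 0.602, rho = 0.627; p = 0.0223 and 0.0302; 0.643 without 2 mice) followed it. They also did in Cy5 alone, at 0.612 and 0.587. C1ra (r = 0.644, rho = 0.468) and C4bp (r = 0.581, rho = 0.535) passed the threshold by r and not by rho. GLU 7, highest in C8a and C9, was also highest in this list, at a list mean of 1.02. GLU+GAL 12, the array with Y-linked signal, had a list mean of 0.0049. From the highest of 24 arrays it ranked 18 in C8a and 20 in C8b. A part of sex in these relations was not tested.

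Cfd followed the adipocyte markers with r = 0.788 (adjusted p = 0.0221) but rho = 0.295 (adjusted p = 0.498). Its probe was well above background on 6 GLU+GAL and 4 GLU arrays, so most of its values lay near background. Without GLU 9 and GLU+GAL 11, the mice farthest in the list, r was 0.244, so the relation rests on them. GLU+GAL 11 had the highest adipocyte list mean, at 0.82, and the highest Cfd. Adipoq, the defining adipocyte gene, was well above background on 4 of 24 arrays and was not tested. By r, the neutrophil, cholangiocyte and mesothelium lists gave 0 calls. Positive calls by rho and not by r included Cd55 with the Kupffer list (rho = 0.603, adjusted p = 0.0315, r = 0.516, and 0.534 in Cy5 alone). They also included Masp1 and Cfb with the hepatocyte list (adjusted p of rho = 0.0358 for both) and C1ra with the acute-phase list (adjusted p of rho = 0.0433). In Cy5 alone these had r of 0.295, 0.058 and 0.119. By rho, C8b was called negative with the cholangiocyte list (rho = -0.568, adjusted p = 0.0444; r = -0.504, adjusted p = 0.0951), with r of -0.597, -0.924 and -0.183 within slides. Cd59a was likewise called negative by rho with the male-predominant list (rho = -0.568, adjusted p = 0.0439; r = -0.434, adjusted p = 0.177), with r of -0.554, 0.175 and -0.577 within slides.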

How the data were processed

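Scanner files of 24 arrays held spot intensity in Cy5 and Cy3. Agilent Feature Extraction (10.7.3.1) made them, per the file headers. Mean signal and median background are intensities as scanned, and processed signals are intensities after that program's own corrections, per the file headers. A value table deposited by the authors held log2 values of 29287 spots. Its columns matched the Cy5 channel of their own arrays (r from 0.988 to 0.995) and had medians of 8.6, and its scaling is not stated in the sources used. Probe positions are in mm9, per the file headers. The mm9 annotation was not used here, so the exon a probe lies in is not given.

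With limma 3.58.1 (R 4.3.3; the data.table package, 1.17.8), normexp (offset 50) corrected the background, and loess within each array normalised the log2 ratio of Cy5 to Cy3. Outlier spots were dropped and repeat spots of a probe averaged. Genes entered the test if Cy5 was well above background on 6 or more arrays of 1 diet. Of 18649 tested genes, 14561 were named in the RefSeq table. The diet difference, GLU+GAL minus GLU, was tested by lmFit and eBayes, 2-sided, with Benjamini-Hochberg adjustment over all genes. Values of 1 gene per mouse were compared by permutation tests (100000 resamples; the smallest p is 1e-05). The fit was tested on simulated data. Correlations used scipy 1.17.1 and plots matplotlib 3.10.9.

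Each slide held 4 arrays of each diet. The reported fit had no slide term, and slide as a block was an alternative setting, in which 15 members were lower. The labels give no pairing by replicate number, and the reported fit used none. Same-numbered mice deviated together at r over 0.1 in 8 of 12 pairs, from -0.38 to 0.52. For GLU+GAL mice 6, 7, 9 and 11 the same-numbered GLU mouse was the most correlated one. Whether same-numbered mice shared a factor is not known from the labels. Named genes were members at an unadjusted p under 0.05, the largest difference of each arm, C3, and fixed pairs with the 5 highest and 3 lowest correlations. The members and lists were chosen with earlier results of these data known. Precision is limited by the number of arrays. Alternatives covered the source of values, the filter, the probe rule, blocks, variance models and left-out arrays.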

Additional observations from a re-analysis of the deposited data

Results flagged for a closer look

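A signal lay outside the comparisons. On array GLU+GAL 12 the Y-linked Eif2s3y had a Cy5 signal, relative to the median of its array, 9.51 times the mean of the other 23 arrays. On those 23, which include all 12 GLU arrays, its probe was not well above background, which makes the value a multiple of background and not of expression. Without this array and GLU+GAL 4, 14 complement genes were lower at an unadjusted limma p under 0.05.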

How the results depend on the processing

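Against 15 members lower at an unadjusted p under 0.05, the number was 3 in the deposited table, 2 with processed signals and 0 with median centring, 1 and 3 within slides 1 and 3, and, in settings chosen after seeing the data, 7 in Cy5 alone without GLU+GAL 4 and 9 in Cy5 alone with slide as a block. The other settings gave 10 to 16, and leaving out 1 array 12 to 16. The p under 0.05 was lost for C1ra without GLU+GAL 3, C2 without GLU 12, and C8a and C9 without GLU 7. The median difference (-0.13) was -0.066 with processed signals, -0.062 in the deposited table, -0.063 in Cy5 alone without GLU+GAL 4, -0.22 within slide 2, and -0.16 to -0.12 on leaving out 1 array. The median pairwise correlation (0.18) was 0.33 with processed signals and 0.49 with median centring, where all genes gave 0.19 and 0.26, and 0.16 to 0.20 on leaving out 1 array. Of the 15 lower members, 13 kept their direction in all 42 settings, and C1ra was at 0.029 within slide 1 and C2 at 0.025 within slide 3. The permutation test carried over the reported difference, so its sign could not change. Slide or replicate blocks, trend and robust variances, and no filter on dim probes left the median difference at -0.13. Fits without 1 array shared most of their arrays. The number of settings is therefore not a measure of stability. With the replicate number as a block, although the labels give no pairing, 15 members were lower, where 3.89% of all genes were. In that setting 0 genes passed the adjusted threshold. Genes past the adjusted threshold numbered 0 in every setting except 1 without GLU 3, and members 0 in every setting. The cause of these changes was not tested.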
